A study of Homo sapiens with 8 samples.

Results

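The 31 genes described here encode the enzymes of cholesterol synthesis, the SREBP transcription factors with the proteins that hold or release them, and fatty acid enzymes that SREBP factors are known to drive. They were taken by symbol from a list drawn up by function, but the list was chosen with earlier results of these data known. All 31 were found among the 28395 genes of the deposited table, and all 31 passed the filter on low values, which left 14040 genes for testing. By role they were 7 enzymes of the mevalonate arm, 3 enzymes from squalene to lanosterol, 8 enzymes from lanosterol to cholesterol, 5 SREBP factors and regulators, 1 sterol carrier and 7 enzymes of fatty acid synthesis.

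The study asked how loss of ANXA4, the gene of the calcium-dependent membrane-binding protein annexin A4, alters the transcriptome of A-498, an established line of human kidney cancer cells. PolyA RNA was sequenced from 8 libraries, 2 replicates of each of 4 derived lines grown for 24 hours in serum-containing medium without reaching confluence. Control line 1 and control line 2 were labelled wild type controls and each carried a different non-targeting guide RNA. The other two lines were labelled ANXA4 knockout and carried guide RNA 1 or guide RNA 2 against ANXA4; they are called KO-labelled line 1 and KO-labelled line 2 here. With 1 line per guide RNA, the guide and the line cannot be told apart, and whether a line is a pool or a clone is not given in the sources used here. Nothing in the labels says how the replicates of a line were separated, so p-values measure only the spread between these libraries, which may be technical.

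Cells make cholesterol from acetyl-CoA through mevalonate, isoprenoid diphosphates, squalene and lanosterol. When the endoplasmic reticulum holds little sterol, SCAP escorts the SREBP precursors to the Golgi, where they are cut and release a transcription factor that binds sterol regulatory elements. When sterol is plentiful, INSIG proteins hold SCAP and SREBP in the endoplasmic reticulum, and the sterol and fatty acid enzymes are transcribed less.

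Libraries held 15784890 to 22631588 reads, and mitochondrial genes took 4.67% to 13.8% of them, highest in replicate 2 of KO-labelled line 2 (13.8%) and of control line 2 (9.05%). The targeted gene did not follow the labels in both lines. ANXA4 had normalized counts of 2821 and 3614 (control line 1), 3858 and 6773 (control line 2), and 235.6 and 234.4 in KO-labelled line 1, a log2 difference from the controls of -4.10 (limma, SE 0.22, adjusted p = 5.88e-05). In KO-labelled line 2 the counts were 3433 and 4142, within the control range (log2 difference -0.10, SE 0.22, limma adjusted p = 0.818). These counts do not show whether ANXA4 was edited in KO-labelled line 2. RNA counted over the whole gene need not fall after an edit that leaves the transcript in place. The label was thus not checked by these values. Every direction given for this line is that of the line so labelled. Of 9 kidney and kidney cancer markers, 6 reached 10 normalized counts in every library (PAX2, PAX8, CDH16, KRT8, KRT18, KRT19). LRP2 was at most 1.13 and CA9 at most 24.8. NDUFA4L2, which did not pass the filter on low values, ranged from 0.86 to 1.13 in the controls and from 2.07 to 8.30 in the KO-labelled libraries. Endothelial markers reached at most 4.53 with CDH5 at 0. Among leukocyte markers CD3E was at 0 and PTPRC at most 1.21, and the 5 genes summed to 1812 to 4297 in the controls and 3211 to 4468 in the KO-labelled libraries, nearly all of it the lysosomal gene CD68. ITGAM, an integrin of myeloid cells, ranged from 21.8 to 29.4 in the controls and from 57.9 to 83.8 in the KO-labelled libraries, with no overlap; by limma it was higher in KO-labelled line 1 (log2 difference 1.37, adjusted p = 0.0193) and line 2 (1.35, 0.0136), while both lines together did not pass (0.0958). The keratins KRT8 and KRT18 also did not overlap between the arms (16747 to 20381 against 24452 to 31461, and 6032 to 9955 against 11228 to 13291). Over all genes 10.6% did not overlap between the arms. Both keratins passed in KO-labelled line 2 (limma adjusted p = 0.0214 and 0.0224) but not in line 1 (0.0594 and 0.0807). CDH16 was higher in KO-labelled line 2 (1.48, limma adjusted p = 0.00989) and KRT19 lower in control line 2 than in control line 1 (-1.35, limma adjusted p = 0.0102). The part of these markers in the results below was not tested. Hepatocyte markers summed to 13.8 to 53.1.

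With both KO-labelled lines together against both control lines, none of the 31 genes was called (0 of 31, with a call meaning limma adjusted p under 0.05 over 14040 genes), against 0.235% of all genes tested. The error of this test came from the spread of libraries within each arm. A correlation of 0.33 between libraries of a line, 1 value shared by all genes, was allowed for. A fit on line means, 2 per arm, called 0 of 14040 genes. At an unadjusted p under 0.05 there were 4 of 31 members, close to the 11.5% of all genes. The lowest adjusted p belonged to MVK, mevalonate kinase (log2 difference -0.87, SE 0.25, limma adjusted p = 0.192). Fits in which only the spread between replicates of a line entered the error called more members in the same comparison. edgeR called 5 (MVK, DHCR7, SREBF2, INSIG2, FADS2; 10.5% of all genes), DESeq2 called 7 (also EBP and SCD; 12.6%), and limma with a separate mean per line called 4 (MVK, DHCR7, SREBF2, FADS2; 10.5%). Those fits treat the lines as fixed and do not ask whether further lines would differ alike. The median member difference was -0.16 on the log2 scale, beside 0.001 over all genes tested.

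**Figure D1:**
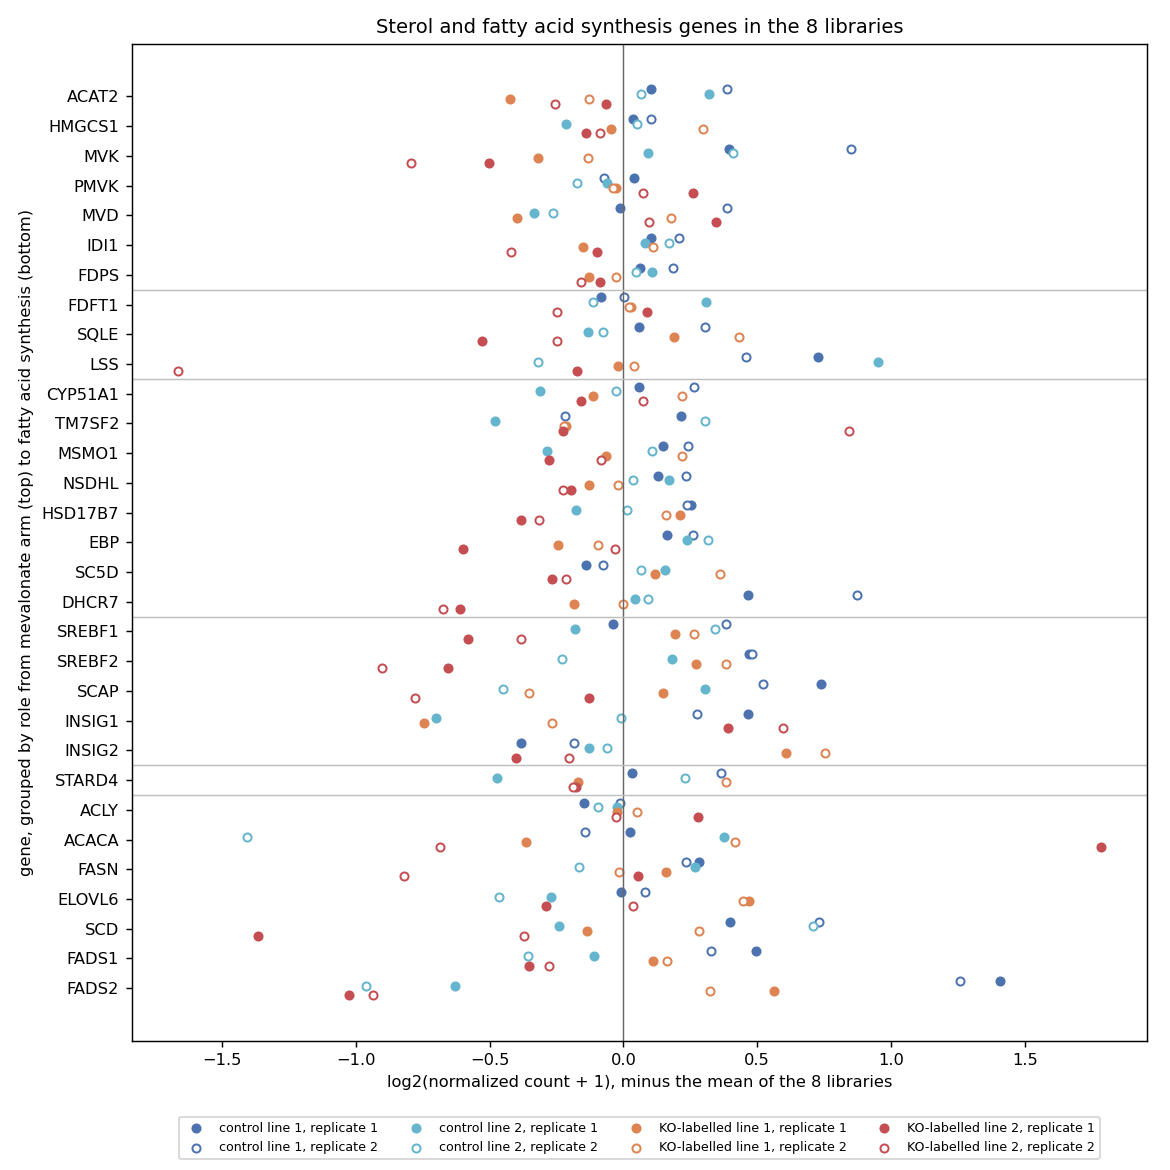
Each row is 1 of the 31 genes, ordered by role, and each point is 1 library; the x axis is log2(normalized count + 1) minus the gene's mean over the 8 libraries. Filled points are replicate 1 and open points replicate 2. KO-labelled line 2 (red) has the lowest line mean in 22 of 31 genes, and control line 1 (dark blue) the highest in 17.

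The sterol enzymes ACAT2, MVK, FDPS, NSDHL, EBP and DHCR7 nevertheless lay lower in all 4 KO-labelled libraries than in all 4 control libraries. These 6 of 31 members are 19.4%, and 5.51% of all genes tested lay lower in this way. ACAT2, the cytosolic acetoacetyl-CoA thiolase that opens the pathway, ranged from 242 to 310.3 normalized counts in the KO-labelled libraries and from 339.9 to 424 in the controls. FDPS, which makes farnesyl diphosphate, ranged from 1889 to 2067 against 2179 to 2396. NSDHL, a sterol dehydrogenase, ranged from 566 to 652 against 679 to 778. The gaps between the groups were narrow next to the spread within them, and no adjusted p of the 6 was below 0.192 in limma. EBP, the sterol isomerase, ranged from 539 to 799 against 914 to 1017. ACAT2 shares its locus with annotated SOD2 and TCP1 transcripts and MVK with MMAB. Of the 31 members, 19 overlap another annotated gene in at least part of their length. Strand use in counting is not given in the sources used here, so how reads in the shared bases were counted is not known.

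Each KO-labelled line was set against both control lines. A gene is named as called below where limma did so with all 8 libraries and no block, unless another setting is given. In KO-labelled line 1, 2 of 31 members were called against both control lines and both were higher, INSIG2 and ELOVL6; 7.01% of all genes were called and 3.82% were called higher. Only INSIG2 was called without replicate 1 or 2 of control line 1 or replicate 2 of control line 2, where the share of all genes called was 2.36% to 4.11%. Without replicate 1 or 2 of KO-labelled line 1, 0 members were called, where that share was 1.05% in either fit. In KO-labelled line 2, 5 of 31 were called and all 5 were lower, MVK, DHCR7, SREBF2, SCD and FADS2; 11.2% of all genes were called and 6.67% were called lower. Without replicate 2 of that line, the library with the highest mitochondrial share, 5 members were called, EBP in place of MVK (7.27% of all genes). Over the fits without 1 library the count was 4 to 7, where 5.79% to 9.71% of all genes were called. Outside the block, other settings also called LSS, EBP, SREBF1 and SCAP (DESeq2, with 9 members and 13.1% of all genes), EBP and SREBF1 (equal library totals), SREBF1 (without replicate 1 of control line 2), LSS, SCAP and, higher, INSIG1 (without replicate 2 of control line 2), and LSS and FASN (without replicate 1 of KO-labelled line 2). The member medians were 0.02 in line 1 and -0.35 in line 2 on the log2 scale, beside medians of -0.001 and 0.01 over all genes. Both comparisons share the same 4 control libraries. Members below all 4 control libraries numbered 6 in line 1 (16.8% of all genes) and 13 in line 2 (15.7%). With the replicate number as a block, 8 members were called in line 1, INSIG2 and ELOVL6 higher and ACAT2, MVK, EBP, DHCR7, SCAP and INSIG1 lower, while 24.4% of all genes were called. With that block 16 were called in line 2, where 27.4% of all genes were: INSIG1 was higher, and IDI1, SQLE, LSS, NSDHL, HSD17B7, EBP, SREBF1, SCAP, FASN and FADS1 joined the 5 lower genes.

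**Figure D2:**
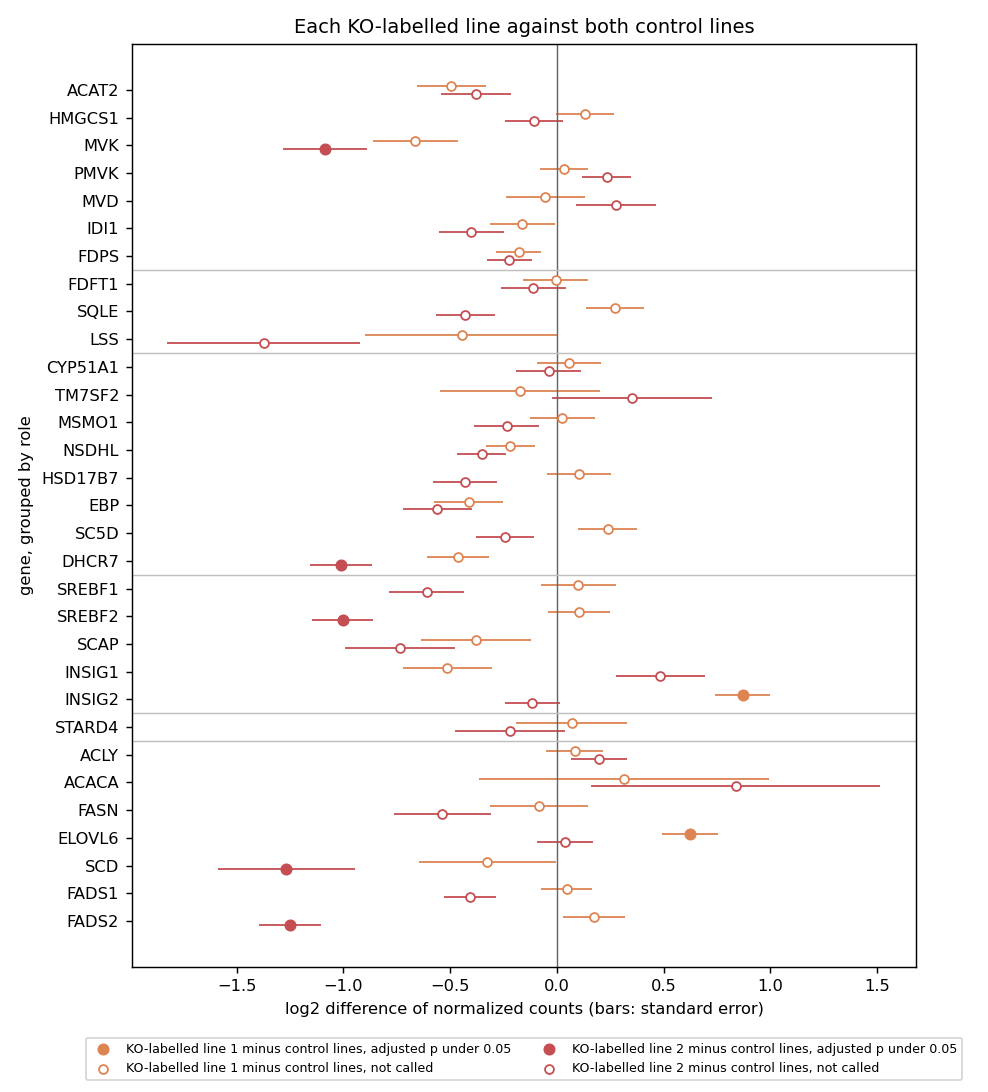
Log2 differences of the 31 genes between each KO-labelled line and both control lines, with standard errors as bars and filled points where the limma adjusted p is under 0.05. INSIG2 and ELOVL6 are filled for KO-labelled line 1 on the right; MVK, DHCR7, SREBF2, SCD and FADS2 are filled for KO-labelled line 2 on the left.

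The difference between the KO-labelled lines was tested directly. Line 2 was lower than line 1 in SQLE, SREBF2, INSIG2 and FADS2 and higher in INSIG1, 5 of 31 members. Over all genes 6.94% were called in this comparison, 2.41% higher and 4.53% lower. Of the 7 genes called in 1 of the KO-labelled lines against the controls, SREBF2, INSIG2 and FADS2 passed this direct test. MVK (limma adjusted p = 0.3), DHCR7 (0.0862), SCD (0.162) and ELOVL6 (0.052) did not pass it without the replicate block. With that block DHCR7 (limma adjusted p = 0.0126), SCD (0.0014) and ELOVL6 (0.00705) passed. MVK (0.14) did not, so it was not shown to differ between the KO-labelled lines in either fit. Without a library of control line 1, control line 2 or KO-labelled line 2 the count moved, but not always in step with the share of all genes called. It is therefore not read as a result about the members. Without a library of KO-labelled line 1, the SQLE, SREBF2, INSIG1 and INSIG2 calls were lost, and fewer of all genes were called as well. Each of these fits left a line with 1 library. The block on the replicate number raised the count to 12, with 11 lower and INSIG1 higher, where 24.5% of all genes were called; it added HSD17B7, SC5D, DHCR7, SREBF1, ELOVL6, SCD and FADS1 to the lower genes.

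The promoter windows are shown for 4 of the 9 genes called in a comparison of lines, the sterol-regulated factor SREBF2, both INSIG genes and the SREBP target SCD. They are shown for their roles in the SREBP pathway and not for the size of their differences, which was larger in FADS2. Each is the 250 bases before the RefSeq transcription start on GRCh38.p14, on the plus strand and written 5′ to 3′. Capitals mark matches, on either strand, to the sterol regulatory element TCACNCCAC, its core CACNCCAC, the NF-Y motif CCAAT and the E-box CACGTG. The core lies within the longer element, so both share their letters in SREBF2.
SREBF2 (chr22:41832855-41833104): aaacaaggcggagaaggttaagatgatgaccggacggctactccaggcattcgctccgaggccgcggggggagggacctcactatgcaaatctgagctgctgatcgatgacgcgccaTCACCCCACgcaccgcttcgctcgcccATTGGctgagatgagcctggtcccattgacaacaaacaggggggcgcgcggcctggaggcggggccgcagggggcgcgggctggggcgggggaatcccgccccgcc
INSIG1 (chr7:155297628-155297877): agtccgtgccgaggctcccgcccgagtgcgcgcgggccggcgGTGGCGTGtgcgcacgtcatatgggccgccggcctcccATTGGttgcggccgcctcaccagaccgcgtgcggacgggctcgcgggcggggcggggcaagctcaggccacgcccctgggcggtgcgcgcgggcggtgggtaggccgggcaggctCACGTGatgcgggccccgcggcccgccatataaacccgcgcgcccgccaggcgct
INSIG2 (chr2:118088221-118088470): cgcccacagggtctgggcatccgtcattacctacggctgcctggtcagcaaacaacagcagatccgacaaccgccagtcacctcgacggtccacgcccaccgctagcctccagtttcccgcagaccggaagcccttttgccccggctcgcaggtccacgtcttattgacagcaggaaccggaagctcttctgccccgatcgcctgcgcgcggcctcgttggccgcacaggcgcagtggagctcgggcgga
SCD (chr10:100346983-100347232): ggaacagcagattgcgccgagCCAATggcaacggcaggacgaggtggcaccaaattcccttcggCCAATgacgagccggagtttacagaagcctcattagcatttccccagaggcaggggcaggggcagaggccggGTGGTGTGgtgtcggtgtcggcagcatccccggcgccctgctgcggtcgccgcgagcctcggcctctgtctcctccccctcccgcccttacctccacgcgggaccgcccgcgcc

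The SREBF2 window held TCACCCCAC followed by ATTGG, the reverse complement of CCAAT. INSIG1 held the core on the minus strand, read as GTGGCGTG, with ATTGG and, 55 bases before the start, CACGTG. SCD held 2 CCAAT matches and GTGGTGTG, also the core on the minus strand. The INSIG2 window held none of these letters. A window was found in RefSeq for 27 of the 31 genes, all but ACAT2, FDFT1, SQLE and FASN, and any window of a gene counted. The core was present in 6 of 27 (22.2%: ACACA, IDI1, INSIG1, SC5D, SCD, SREBF2) and in 5.89% of 27305 genes with a window of this length. The longer element was present in 1 of 27 (3.70%, SREBF2) and in 1.09% of all genes. CCAAT was present in 19 of 27 (70.4%, against 37.0%), CACGTG in 3 of 27 (11.1%, against 7.73%; INSIG1, SC5D and SCAP), and the GC box GGGCGG, left in lower case above, in 26 of 27 (96.3%, against 46.2%). These are letter matches in short windows and were not tested for binding.

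SREBF2 (Entrez gene 6721, chr22:41833105-41907305), which encodes the SREBP factor best known for driving the sterol enzymes (positions here and below are RefSeq on GRCh38.p14), had normalized counts of 1532 and 1547 in control line 1, 1255 and 944 in control line 2, 1338 and 1445 in KO-labelled line 1 and 702 and 593 in KO-labelled line 2. Both libraries of KO-labelled line 2 lay below the other 6, which ranged up to 1547. SREBF2 fell 2.00-fold in KO-labelled line 2 against the controls, a log2 difference of -1.003 (SE 0.14, adjusted p = 0.00415) in limma, and against control line 1 and control line 2 alone it was -1.25 (adjusted p = 0.00254) and -0.75 (0.0385). Against KO-labelled line 1 the limma log2 difference was -1.11 (SE 0.17, adjusted p = 0.00924); without replicate 1 or replicate 2 of KO-labelled line 1 the adjusted p was 0.0608 or 0.103. SREBF2 did not pass the test in KO-labelled line 1 (0.10, adjusted p = 0.707) nor between the control lines (-0.50, adjusted p = 0.174; 0.0301 with the replicate block).

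INSIG1 and INSIG2, the paired anchors of the SCAP and SREBP complex, moved in opposite ways between the KO-labelled lines. INSIG1 (Entrez gene 3638, chr7:155297878-155310235), itself a well-known SREBP target, had 1894 and 1659 in control line 1, 844 and 1363 in control line 2, 819 and 1139 in KO-labelled line 1 and 1797 and 2074 in KO-labelled line 2. The libraries of KO-labelled line 2 overlapped those of control line 1 and lay above both libraries of KO-labelled line 1. INSIG1 was 2.00-fold higher in KO-labelled line 2 than in KO-labelled line 1, a log2 difference of 1.00 (SE 0.24, adjusted p = 0.0441) in limma. That call was lost without any 1 of 6 libraries: the adjusted p was 0.0807 and 0.0799 without replicate 1 or 2 of control line 1, 0.231 and 0.121 for KO-labelled line 1, and 0.0612 and 0.15 for KO-labelled line 2. Against both control lines INSIG1 passed neither in KO-labelled line 1 (-0.51, adjusted p = 0.175; 0.0236 with the replicate block) nor in KO-labelled line 2 (0.49, adjusted p = 0.176; 0.0268 with the block). Control line 2 lay below control line 1 as well (-0.72, adjusted p = 0.173; 0.0149 with the block).

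INSIG2 (Entrez gene 51141, chr2:118088471-118110997) had 425 and 488 in control line 1, 507 and 530.2 in control line 2, 845 and 935 in KO-labelled line 1 and 419 and 480.4 in KO-labelled line 2. The libraries of KO-labelled line 1 stood above the other 6, which reached at most 530.2. INSIG2 rose 1.83-fold in KO-labelled line 1, a limma log2 difference of 0.87 (SE 0.13, adjusted p = 0.00694) against both control lines. It was 0.96 against control line 1 (adjusted p = 0.00689) and 0.78 against control line 2 (adjusted p = 0.0356), in limma. Leaving out replicate 1 or 2 of KO-labelled line 1 gave an adjusted p of 0.0655 or 0.101. KO-labelled line 2 was lower than KO-labelled line 1 (limma log2 difference -0.99 (SE 0.15, adjusted p = 0.00937)), with 0.0588 and 0.11 when the same libraries were left out.

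SREBF1 (Entrez gene 6720, chr17:17811334-17836986), which encodes the SREBP factors best known for fatty acid enzymes, had 1418 and 1899 in control line 1, 1285 and 1848 in control line 2, 1662 and 1749 in KO-labelled line 1 and 973 and 1115 in KO-labelled line 2. Both libraries of KO-labelled line 2 were the lowest of the 8, yet the spread within the control lines was wide and the difference did not pass (-0.61 (SE 0.18, adjusted p = 0.0592), limma; 0.00148 with the replicate block). SCAP (Entrez gene 22937, chr3:47413681-47477127), the sterol-sensing escort, had 1139 and 979.7, 843 and 499.6, 757 and 534 and 624 and 397 in the same order of lines. Replicate 2 was the lower in all 4 lines, and the line difference was -0.73 (SE 0.26, adjusted p = 0.106) in KO-labelled line 2 (limma; 0.000848 with the block). It passed against control line 1 alone (-1.08, limma adjusted p = 0.047) and not against control line 2 (-0.38, 0.539).

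**Figure D3:**
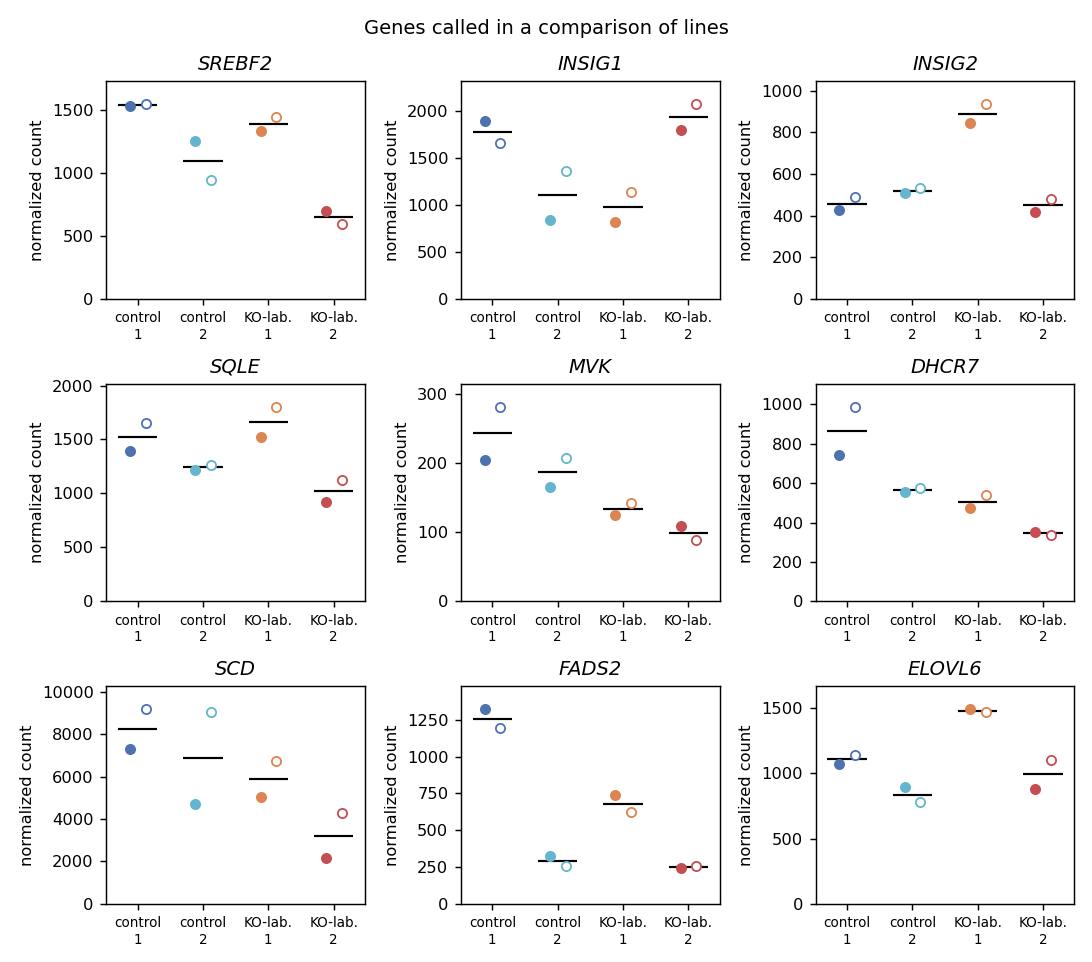
Normalized counts of the 9 genes called in a comparison of lines, by line. Filled points are replicate 1, open points replicate 2 and bars the mean of 2; each axis starts at 0. SREBF2 is lowest in KO-labelled line 2, INSIG2 and ELOVL6 are highest in KO-labelled line 1, and FADS2 is high in control line 1.

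In the mevalonate arm, 1 of 7 enzymes was called in a comparison of lines without the block. MVK (Entrez gene 4598, chr12:109573272-109598125), which phosphorylates mevalonate, had 205 and 282 in control line 1, 166 and 207 in control line 2, 124 and 142 in KO-labelled line 1 and 109.6 and 89.3 in KO-labelled line 2. All 4 KO-labelled libraries lay below the lowest control library, and those of line 2 were the lowest. MVK fell 2.12-fold in KO-labelled line 2 (-1.09 (SE 0.20, adjusted p = 0.011), limma); without replicate 2 of that line the adjusted p was 0.0588, and against control line 2 alone it was 0.0588. In KO-labelled line 1 it was -0.66 (limma adjusted p = 0.0805; 0.0148 with the block). The other 6 enzymes of this arm differed by -0.40 to 0.28 in KO-labelled line 2 and by -0.49 to 0.13 in KO-labelled line 1 on the log2 scale. HMGCS1, HMG-CoA synthase, ranged from 1009 to 1259 in the controls and from 1062 to 1439 in the KO-labelled libraries. IDI1, the isomerase of isopentenyl diphosphate, had means of 355 ± 18.5 and 347 ± 15.3 in the control lines and 315 ± 40.2 and 267 ± 41.7 in KO-labelled lines 1 and 2 (SD, n = 2). PMVK and MVD, the next kinase and the decarboxylase, went the other way in KO-labelled line 2 without passing the test (0.23 and 0.28, limma adjusted p = 0.235 and 0.393).

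Of the 3 enzymes from squalene to lanosterol, SQLE was called between the KO-labelled lines and, against control line 1 alone, in KO-labelled line 2. SQLE (Entrez gene 6713, chr8:124998505-125022283), squalene epoxidase, had 1391 and 1649 in control line 1, 1217 and 1268 in control line 2, 1523 and 1803 in KO-labelled line 1 and 925 and 1124 in KO-labelled line 2. KO-labelled line 1 was the highest line and KO-labelled line 2 the lowest, with the control lines between. SQLE was 1.62-fold lower in KO-labelled line 2 than in KO-labelled line 1 (-0.70 (SE 0.16, adjusted p = 0.0369), limma). The call was lost without either library of control line 1 (0.0638 and 0.0639), KO-labelled line 1 (0.104 and 0.244) or KO-labelled line 2 (0.0867 and 0.0514). LSS, which folds the epoxide into lanosterol, rested on 15 to 135 reads per library. Its counts were 99.3 and 82.2, 116 and 47.6, 58.7 and 61.2 and 52.7 and 18.1 in the 4 lines, and its difference in KO-labelled line 2 was -1.37 (SE 0.45, adjusted p = 0.0875) in limma (0.00505 with the block; LSS was also called by DESeq2 and without some single libraries, as listed above). FDFT1, squalene synthase, ranged from 1000.4 to 1339 in the controls and from 910.2 to 1149 in the KO-labelled libraries.

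From lanosterol to cholesterol, DHCR7 was the 1 of 8 enzymes called in a comparison of lines with all 8 libraries and no block. DHCR7 (Entrez gene 1717, chr11:71427287-71449043), which reduces 7-dehydrocholesterol to cholesterol, had 746 and 988 in control line 1, 556 and 574 in control line 2, 474 and 538 in KO-labelled line 1 and 353 and 338 in KO-labelled line 2. Line 2 was the lowest of the 4 lines and control line 1 the highest, with no overlap between the KO-labelled and the control libraries. DHCR7 fell 2.01-fold in KO-labelled line 2 (-1.01 (SE 0.15, adjusted p = 0.00417), limma), and by 1.31 and 0.71 on the log2 scale against control line 1 and control line 2 alone (adjusted p = 0.00221 and 0.0472). In KO-labelled line 1 the difference was -0.46 (SE 0.15, adjusted p = 0.0939), which the replicate block brought to 0.0145; it passed against control line 1 alone (-0.76, adjusted p = 0.0268) and not against control line 2 (-0.16, adjusted p = 0.65). The control lines differed in DHCR7 by -0.60 (SE 0.17, adjusted p = 0.112) (limma; 0.0132 with the block).

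The other 7 enzymes of this segment passed no comparison of lines by limma with all 8 libraries and no block. EBP, lower in KO-labelled line 2 by DESeq2, with equal library totals and without replicate 2 of that line, had means of 946 ± 45.8 and 990.1 ± 38.6 in the control lines and 727 ± 54.2 and 669 ± 184 in KO-labelled lines 1 and 2 (SD, n = 2), with limma adjusted p = 0.164 and 0.0596 (0.0239 and 0.00416 with the block). HSD17B7, a ketosterol reductase, had means of 189 ± 1.47, 151 ± 13.99, 182 ± 4.48 and 125 ± 4.19 in the same order. Control line 2 and KO-labelled line 2 were thus its lower lines, and KO-labelled line 2 against both controls was -0.43 (SE 0.15, adjusted p = 0.104) in limma (0.0406 with the block). The demethylase CYP51A1 was 0.06 and -0.04 and the methyl oxidase MSMO1 0.02 and -0.23 on the log2 scale in KO-labelled lines 1 and 2. SC5D, a sterol desaturase, was 0.24 in KO-labelled line 1 and -0.24 in KO-labelled line 2 (limma adjusted p = 0.329 and 0.304). TM7SF2, a sterol reductase, stood on 24 to 44 reads per library and ranged from 20.6 to 53.1. STARD4, a soluble sterol carrier, ranged from 67.1 to 121 in the controls and from 82.1 to 122 in the KO-labelled libraries.

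Among the 7 enzymes of fatty acid synthesis, SCD, ELOVL6 and FADS2 were called in a comparison of lines, and FADS1 where control line 1 was used alone. SCD (Entrez gene 6319, chr10:100347233-100364826), which puts the first double bond into fatty acids, had 7297 and 9187 in control line 1, 4689 and 9044 in control line 2, 5037 and 6747 in KO-labelled line 1 and 2150.1 and 4279 in KO-labelled line 2. Both libraries of KO-labelled line 2 were the lowest of the 8, and replicate 2 was the higher in every line. SCD fell 2.41-fold in KO-labelled line 2 (-1.27 (SE 0.32, adjusted p = 0.0373), limma; 4.98e-05 with the block). Without the block the call was lost in edgeR (adjusted p = 0.0501), against control line 2 alone (0.128), and without replicate 1 of KO-labelled line 2 (0.186), where the log2 difference was -0.77. It was also lost without replicate 1 or 2 of control line 1 (0.0751 and 0.104), replicate 2 of control line 2 (0.0556) or replicate 1 or 2 of KO-labelled line 1 (0.0597 and 0.0593).

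ELOVL6 (Entrez gene 79071, chr4:110045846-110199202), which lengthens saturated fatty acids, had 1073 and 1141 in control line 1, 893 and 782 in control line 2, 1492 and 1471 in KO-labelled line 1 and 882 and 1105 in KO-labelled line 2. KO-labelled line 1 stood above all other libraries. ELOVL6 rose 1.54-fold there (0.62 (SE 0.13, adjusted p = 0.0268), limma), which passed against control line 2 alone (0.83, adjusted p = 0.0292) and not against control line 1 alone (0.42, 0.122). Leaving out replicate 1 or 2 of control line 1 gave 0.0852 and 0.081, replicate 2 of control line 2 0.064, and replicate 1 or 2 of KO-labelled line 1 0.191 and 0.182.

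FADS2 and FADS1, the desaturases of polyunsaturated fatty acids, lie side by side on chromosome 11 at chr11:61816203-61867354 and chr11:61799627-61817003 (GRCh38.p14), where the annotated genes overlap. FADS2 differed widely between the control lines, and its largest limma log2 difference was -2.31, in KO-labelled line 2 against control line 1. Its counts were 1322 and 1193 in control line 1, 322 and 255 in control line 2, 737 and 623 in KO-labelled line 1 and 244 and 259.5 in KO-labelled line 2. Control line 1 was highest, KO-labelled line 1 lay between, and control line 2 and KO-labelled line 2 overlapped at the bottom. Control line 2 was 4.37-fold lower than control line 1 (-2.13 (SE 0.17, adjusted p = 0.000474), limma). This was the 1 of 31 members called between the control lines, lower, where 2.13% of all genes were called and 1.08% were called lower. DESeq2 also called FADS1 (4.67% of all genes), and the replicate block gave 6 lower members, adding DHCR7, SREBF2, SCAP, INSIG1 and FADS1 (12.5% of all genes).

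The FADS2 difference of a KO-labelled line therefore depended on the control. KO-labelled line 2 against both control lines was -1.25 (SE 0.15, adjusted p = 0.00207) in limma, but -2.31 against control line 1 and -0.19 (adjusted p = 0.609) against control line 2. KO-labelled line 1 was -0.89 against control line 1 (limma adjusted p = 0.0156) and 1.24 against control line 2 (adjusted p = 0.00986), opposite in sign and called both times. KO-labelled line 2 was 2.69-fold lower than KO-labelled line 1 (-1.43 (SE 0.17, adjusted p = 0.00384), limma). FADS1 followed the same order of lines more weakly, with means of 1486 ± 123, 953 ± 115, 1225 ± 30.3 and 896 ± 32.4 (SD, n = 2), and by limma without the block it passed in KO-labelled line 2 against control line 1 alone (-0.73, limma adjusted p = 0.0115).

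ACLY, ACACA and FASN passed no comparison of lines by limma with all 8 libraries and no block. Without replicate 1 of KO-labelled line 2, FASN was called in that line against both controls and against KO-labelled line 1. ACLY, which makes cytosolic acetyl-CoA, ranged from 13532 to 14868 in the controls and from 14732 to 18204 in the KO-labelled libraries. ACACA, acetyl-CoA carboxylase, rested on 19 to 198 reads per library, with 59.8 and 53.0, 76.6 and 21.5, 45.4 and 78.8 and 205 and 36.2 in the 4 lines. FASN (Entrez gene 2194, chr17:82078338-82098236), fatty acid synthase, had 5517 and 5325 in control line 1, 5459 and 4041 in control line 2, 5054 and 4483 in KO-labelled line 1 and 4709 and 2569 in KO-labelled line 2. Replicate 2 of KO-labelled line 2 was the lowest FASN library and replicate 2 of control line 2 the next, and these were also the libraries with the highest mitochondrial share.

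Each KO-labelled line was also set against each control line. Against control line 1, KO-labelled line 1 had 3 called members (DHCR7 and FADS2 lower, INSIG2 higher; 8.95% of all genes), and against control line 2 it had 3, all higher (INSIG2, ELOVL6, FADS2; 2.43%). KO-labelled line 2 had 8 lower members against control line 1 (MVK, SQLE, DHCR7, SREBF2, SCAP, SCD, FADS1, FADS2; 12.3% of all genes) and 2 against control line 2 (DHCR7, SREBF2; 5.24%). In comparisons that shared no library, the member medians were -0.18 for KO-labelled line 1 minus control line 1 and -0.21 for KO-labelled line 2 minus control line 2, with 17 of 31 members lower in both and 3 higher in both. The same sign was thus shared by 64.5% of members and by 54.7% of all genes. With the control lines exchanged, the medians were 0.08 and -0.39, 11 members were lower in both, 4 were higher in both, and the same sign was shared by 48.4% of members and 53.6% of all genes. The line mean was lower in both KO-labelled lines than in both control lines for 10 members (32.3%, against 19.3% of all genes) and higher for ACLY and ACACA (6.45%, against 19.5%).

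The order of the 4 lines was uneven over the 31 genes. KO-labelled line 2 had the lowest line mean for 22 members (71.0%), beside 28.7% of all genes, and control line 1 the highest for 17 (54.8%), beside 26% of all genes. The lowest place fell to control line 2 for 5 members, KO-labelled line 1 for 3 and control line 1 for 1, ACLY. Within replicate 1 the counts were 17 and 16, and within replicate 2 they were 20 and 18. Without the 2 libraries of highest mitochondrial share they were 19 and 15. These genes share regulators and libraries, so the counts describe the 4 lines and carry no test.

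Replicate 2 differed from replicate 1 across lines in 5 of 31 members, SCD, SREBF1 and CYP51A1 higher and SCAP and FASN lower; over all genes 17.6% were called, 8.97% higher and 8.62% lower. The SCD difference was 0.67 (SE 0.11, adjusted p = 0.0033) in limma, with 0.33, 0.95, 0.42 and 0.99 within control lines 1 and 2 and KO-labelled lines 1 and 2. The SCAP difference was -0.53 (SE 0.10, adjusted p = 0.00515) in limma, with -0.22, -0.75, -0.50 and -0.65 in the same order. FASN was -0.38 (SE 0.12, adjusted p = 0.039) in limma, from -0.05 in control line 1 to -0.87 in KO-labelled line 2. For SCD, SCAP and FASN the differences thus kept 1 sign in all 4 lines and were larger in the lines whose replicate 2 had a high mitochondrial share. CYP51A1 had 1127 and 1300.0, 872 and 1060.5, 1000.5 and 1260.3 and 969 and 1138 in the 4 lines, replicate 2 the higher each time (0.26 (SE 0.08, adjusted p = 0.0336), limma), and SREBF1 was 0.30 (SE 0.09, adjusted p = 0.035). These genes did not follow that order of lines: the differences were 0.21, 0.28, 0.33 and 0.23 for CYP51A1 and 0.42, 0.52, 0.07 and 0.20 for SREBF1. Over the 31 genes, 8 were higher in replicate 2 in all 4 lines (20.2% of all genes) and 3 were lower in all 4 (19.3%).

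The mitochondrial share was 4.67% and 6.35% in control line 1, 6.39% and 9.05% in control line 2, 6.43% and 6.23% in KO-labelled line 1, and 6.40% and 13.8% in KO-labelled line 2. For LSS and ACACA replicate 2 lay furthest below replicate 1 in the same 2 lines, control line 2 and KO-labelled line 2, with log2 differences of -1.27 and -1.49 for LSS and -1.78 and -2.47 for ACACA, on low reads. The part of this share in the differences was not tested. Without either library of control line 2 or of KO-labelled line 2, 2 members were called, SCAP and SCD, where 5.03% to 8.28% of all genes were. The call of FASN was lost without replicate 1 or 2 of control line 2 (adjusted p = 0.158 and 0.158) or of KO-labelled line 2 (0.158 and 0.16). That of CYP51A1 was lost without any 1 of the 8 libraries (0.0668 to 0.132), and that of SREBF1 without any library of control line 1, control line 2 or KO-labelled line 2 (0.0611 to 0.194). With equal library totals as the scaling, CYP51A1 and SREBF1 were not called (0.128 and 0.0927).

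**Figure D4:**
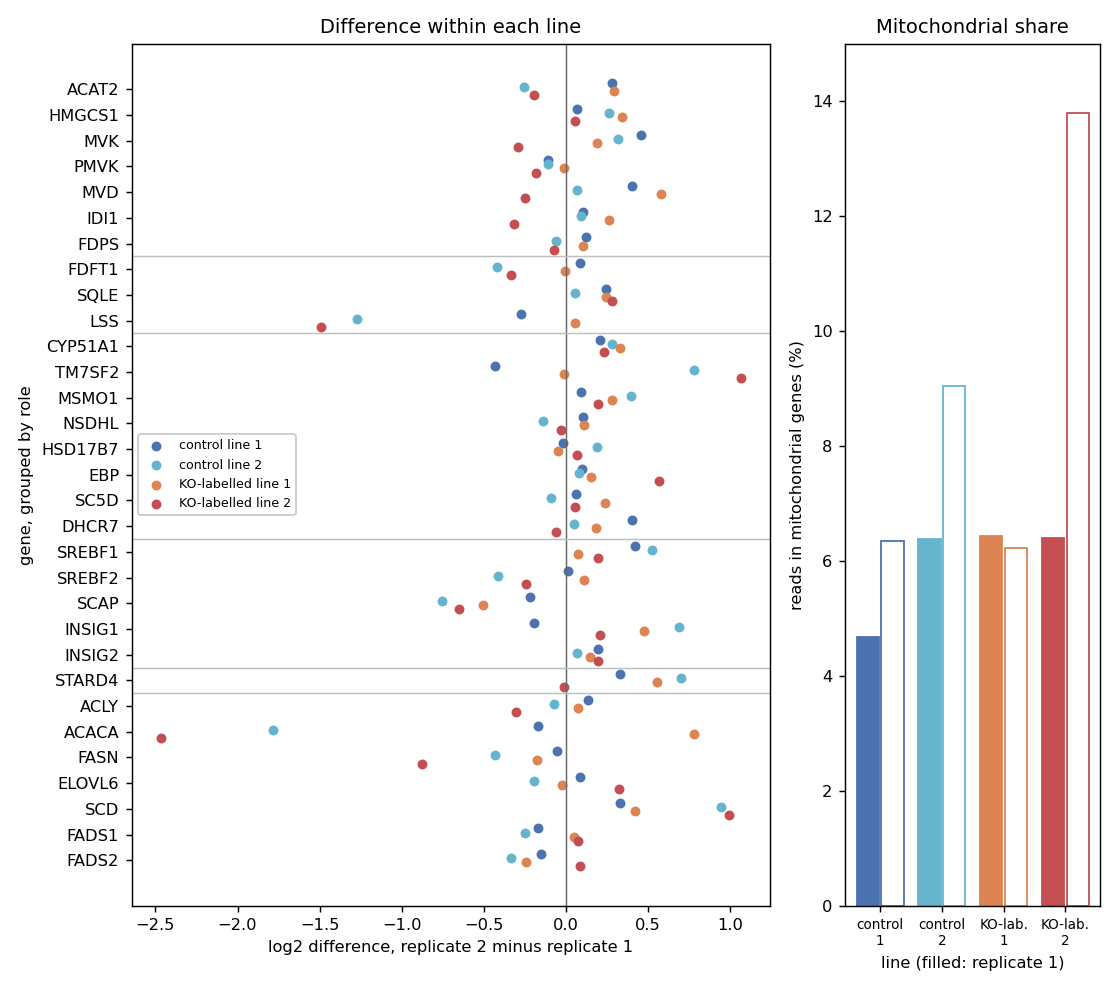
Left, the log2 difference of replicate 2 minus replicate 1 within each line for the 31 genes, 1 point per line; right, the percent of reads in mitochondrial genes, replicate 1 filled and replicate 2 open. SCD is above 0 and SCAP below 0 in all 4 lines, and replicate 2 of KO-labelled line 2 has the tallest bar at 13.8%.

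Around the 31 genes, 77 further genes of sterol handling, isoprenoid use and lipid synthesis were listed, of which 73 passed the filter. None was called by limma with both KO-labelled lines against both controls, and 5 of 73 had an unadjusted p under 0.05, beside 11.5% of all genes. In KO-labelled line 1, 2 of 73 were called, both higher, beside 3.82% of all genes higher. With the replicate block 11 were higher and 6 lower, beside 13% and 11.4% of all genes. RNF139, a ubiquitin ligase of the sterol-sensing machinery, had 564 and 664 in KO-labelled line 1 against 411 to 436 in the controls (0.54 (SE 0.13, adjusted p = 0.0424), limma), and ME1, malic enzyme, which yields NADPH, had 1242 and 1183 against 766 to 1019.5 (0.45 (SE 0.11, adjusted p = 0.0476), limma). In KO-labelled line 2, 1 of 73 was higher and 8 were lower, beside 4.54% and 6.67% of all genes. The 8 include SCD5, which passed the filter on low values through control libraries alone. With the block 5 were higher and 20 lower, beside 12.5% and 14.9% of all genes.

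The paired ERLIN genes, whose proteins form a complex in the endoplasmic reticulum that restrains SREBP activation, went apart in KO-labelled line 2. ERLIN1 had 841 and 867 against 1341 to 1712 in the controls (-0.81 (SE 0.11, adjusted p = 0.00358), limma), and ERLIN2 had 1485 and 1775 against 908 to 1251 (0.61 (SE 0.12, adjusted p = 0.0139), limma). For neither did the groups overlap, which held for 29.6% of all genes. COQ2, of ubiquinone synthesis, had 289 and 386 against 472 to 610.5 (-0.68 (SE 0.15, adjusted p = 0.0236), limma), and DOLK, dolichol kinase, had 325 and 298 against 410.1 to 515 (-0.60 (SE 0.13, adjusted p = 0.0194), limma). GRAMD1C, a sterol transporter between membranes, had 39.3 and 27.8 against 80.9 to 105 (-1.41 (SE 0.24, adjusted p = 0.00776), limma). HACD2, a dehydratase of fatty acid elongation, had 67.2 and 56.7 against 120.1 to 217 (-1.40 (SE 0.24, adjusted p = 0.00891), limma). SCD5, the second stearoyl-CoA desaturase, had 0 reads in both libraries of KO-labelled line 2 and was low in KO-labelled line 1 (4.70 and 9.34) and control line 1 (13.8 and 3.12), but not in control line 2 (37.9 and 48.7). At a floor of 3 reads per library, a value of 3.36, SCD5 in KO-labelled line 2 was at least 12.9-fold lower than the mean of control line 2. No fold is given against control line 1, whose replicate 2 itself held 3 reads. It passed the filter on low values through control libraries alone, so its call there is no support for the list. LPIN1 and AGPAT2 were the other called genes.

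Between the KO-labelled lines 6 of 73 were called, all lower in line 2, beside 4.53% of all genes lower: GRAMD1C, MYLIP, HACD2, LPIN1, ACSL3 and SCD5, whose call rests on 6 and 9 reads against 0 and 0. No KO-labelled library of SCD5 reached the filter value, so its place in this count is no support for the list. With the block 2 were higher and 18 lower, beside 10.5% and 14% of all genes. MYLIP, a ubiquitin ligase induced by sterol-activated nuclear receptors, had 69.7 and 73.6 in line 1 and 30.0 and 37.4 in line 2 (-1.07 (SE 0.27, adjusted p = 0.0499), limma). Between the control lines 1 of 73 was higher and 1 lower, beside 1.05% and 1.08% of all genes, and with the block 5 were higher and 5 lower, beside 5.68% and 6.79%. LPCAT3, a lysophospholipid acyltransferase, had 858 and 946 in control line 2, above the 458 and 464 of control line 1 (0.97 (SE 0.13, adjusted p = 0.0121), limma), and SCARB1, the receptor for high-density lipoprotein, had 1669 and 1952 in control line 2, below the 2787 and 3011 of control line 1 (-0.68 (SE 0.13, adjusted p = 0.0411), limma). For both genes the control lines did not overlap, which held for 43.9% of all genes. Between replicates 7 of 73 were higher and 6 lower in replicate 2, near the shares over all genes; the largest in each list were RABGGTB, NCEH1, NPC2, HSD17B12, ELOVL7 and CYB5B among the higher and PDSS2, NR1H3, OSBP, HACD2, FADS3 and POR among the lower.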

How the data were processed

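The deposited table held one column per library, which the authors made from featureCounts counts and scaled, per the file headers and the values. Its values are a normalized signal, deposited by the authors as whole reads divided by 1 size factor per library: 100% of values above 0 were whole reads within a relative deviation of at most 8.45e-10, and the factors matched DESeq2 median-of-ratios factors within 3.65e-10. Per the submitters' processing notes the tools were fastp 0.23.2, HISAT2 2.2.1, featureCounts 2.0.1 and DESeq2 2.11.40.8, with hg38 and GRCh38 as builds. Annotation and strand use are not given in the sources used here. Symbols were matched by Entrez identifier to RefSeq on GRCh38.p14 (27745 of 28395 identifiers; the other 650 held 0.0332% of reads), which also gave the promoter windows.

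R 4.3.3 with limma 3.58.1 tested log2(value + 1) with a mean-variance trend. The filter, 10 or more in 2 or more libraries, left 14040 genes, with Benjamini-Hochberg adjustment over all of them. Log2 differences and folds are on that scale and understate changes of low genes. KO against control used duplicateCorrelation by line (0.33); single lines entered a joint model of 4 line means, about 8.8 degrees of freedom behind each; replicates with line as a term. Leave-one-out fits that leave a line with 1 library assume that it varies like the others. Replicate numbers come from the titles. They were taken as pairing the libraries in the replicate comparison and the block, because replicate differences correlated across genes at 0.285 to 0.501 in all 6 pairs of lines. The main comparisons of lines and arms left this pairing out, so both readings are given. Replicates were not repeats of 1 library (chi-square of reads 14.4 to 54.7 per degree of freedom). Alternatives were pseudocounts of 0.1 and 10, other filters (none, or a mean of at least 50), TMM and equal-total scaling, edgeR 4.0.16 and DESeq2 1.42.0 on the recovered reads, the replicate block, and leaving out each library; comparisons with single control lines and the order of line means were added after seeing the data. Scripts were tested on simulated data. Members and lists were chosen with earlier results of these data known. All members called in at least 1 comparison are given per library, and up to 2 called rises and falls per further list are named. Reads carry no molecular identifiers, so counting limits cover counting error only.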

Additional observations from a re-analysis of the deposited data

Results flagged for a closer look

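Single libraries stood apart from the other 3 of their arm in 3 of the 62 combinations of gene and arm examined with Dixon's limit, which chance alone would exceed in about 1 of 20. FASN had 4041 in replicate 2 of control line 2, below the 5325 to 5517 of the other controls. TM7SF2 had 53.1 in replicate 2 of KO-labelled line 2, above 24.8 to 25.1 in the other KO-labelled libraries. STARD4 had 122 in replicate 2 of KO-labelled line 1, above 82.1 to 83.0. The first and second are the libraries with the highest mitochondrial share of their arms; its part was not tested.

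Both KO-labelled lines, set against the same controls, differed from each other in 5 genes by limma's test of the difference (log2, line 2 minus line 1). The values were -0.70 for SQLE (adjusted p = 0.0369), -1.11 for SREBF2 (0.00924), 1.00 for INSIG1 (0.0441), -0.99 for INSIG2 (0.00937) and -1.43 for FADS2 (0.00384).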

How the results depend on the processing

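Over the 18 called differences of single genes, 320 settings were computed, of which 258 kept the call, 62 lost it and none reversed its direction. DHCR7, SREBF2 and FADS2 in KO-labelled line 2 against both controls kept their calls in every planned setting, as did FADS2 in control line 2 against control line 1 and in KO-labelled line 2 against line 1. With no filter on low values, INSIG1 between the KO-labelled lines (adjusted p = 0.0569) and FASN between replicates (0.0556) lost theirs in limma; with no line term all 5 replicate calls were lost. Counts of called members moved as follows. KO against control gave 5 with edgeR, 7 with DESeq2 and 4 with a separate mean per line, and 0 with the replicate block, with line means and in every fit without 1 library. KO-labelled line 1 gave 8 with the replicate block (24.4% of all genes), and without 1 library its count fell or stayed as described above. KO-labelled line 2 gave 9 with DESeq2 (13.1% of all genes), 16 with the block (27.4%), 8 against control line 1 (12.3%) and 2 against control line 2 (5.24%). Without 1 library its count moved as described above. KO-labelled line 2 against line 1 gave 12 with the block (24.5% of all genes), and without 1 library its count moved as described above. The control lines gave 2 with DESeq2 (4.67% of all genes) and 6 with the block (12.5%). The FADS2 log2 difference between them was -2.30 to -1.96 over all settings. The replicate comparison gave 0 with no line term. Without 1 library its count moved, and the share of all genes called moved as well.

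Over all genes, the counts for KO against control and for the 4 comparisons of lines were 33, 984, 1573, 975 and 299, and with the replicate block 37, 3432, 3851, 3442 and 1752. KO against control ranged from 0 with line means to 1774 with DESeq2 and was 71 with no filter; without 1 library it ranged from 7 to 39. The counts rest on 2 libraries per line, so differences under the spread of a pair were not detectable. LSS, ACACA and TM7SF2 rest on few reads.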
